A study of Mus musculus with 26 samples.

Results

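Secondary tumors of a mouse model of Group3 medulloblastoma were compared with neurospheres, the floating cultures of the same tumor model, in 6 of the 26 expression arrays of the series. The 3 arrays labelled Group3 secondary tumor and the 3 labelled "Group3 neurophere" were chosen by their labels, and all 6 carry the title code dka. The secondary tumors are labelled as medulloblastoma tumors and the neurospheres as medulloblastoma cells. Both have the genotype Trp53-/-, Cdkn2c-/- Myc and the strain C57BL/6, so the 2 gene losses and Myc are shared and are not what the comparison tests. The labels do not give the promoter that drives Myc, the host, the graft site, the age, how many animals or cell clones were used, or what makes a tumor secondary. Whole RNA was extracted, amplified and hybridised to the mouse HT MG-430 PM array, and the study as a whole set such cells and tumors beside treatment with pemetrexed and gemcitabine. None of the arrays described here is labelled as drug treated. The 3 arrays labelled Group3 tumor with the same title code, called primary tumors below, have the same genotype and strain and serve to show where secondary tumors differ. The fit also holds 3 arrays with that code labelled Trp53 neurospheres, called Trp53 Cdkn2c neurospheres below. They are a separate group and add only to the estimate of spread.

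Group 3 is the medulloblastoma class in which high MYC is common, and medulloblastoma arises in the cerebellum or its surroundings. Cells of the granule neuron lineage pass from dividing progenitors, marked by factors such as Atoh1, to neurons that switch on Neurod1 and then the proteins of axons and synapses. Neurospheres are usually grown with EGF and FGF, conditions under which neural stem and glial progenitor genes are known to be kept on. A tumor also holds blood vessels, microglia and macrophages of its host, which a culture of tumor cells lacks.

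Values are the deposited log2 expression values, so a difference of 1 is a 2-fold difference. Of 17097 genes with a probe set of a single symbol, 1633 were higher and 2428 lower in secondary tumors than in neurospheres at an adjusted p under 0.05, which is 9.55% and 14.2% of all genes tested. At least 2-fold differences were found in 840 of the higher and 1737 of the lower genes, and the median difference over all genes was -0.01. The 3 secondary tumor arrays lay wholly above the 3 neurosphere arrays for 3013 genes (17.6%) and wholly below for 3673 (21.5%). Within the groups, secondary tumors 2 and 3 were close to each other (r = 0.992 over all probe sets) and secondary tumor 1 stood apart from both (r = 0.960 each), while neurospheres correlated at 0.975 to 0.982. The highest median of these 6 arrays was 4.73. The neurosphere mean was under it for 447 of the higher genes, and the secondary tumor mean was under it for 700 of the lower genes. At that end of the scale a value may be background, so the size of a fold rests on the brighter group. The labels do not say whether the arrays came from separate animals or cultures, and the p-values therefore measure only the spread between arrays.

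Myc, the oncogene named in the genotype, had values of 9.48, 8.55 and 8.64 in secondary tumors, against 7.94, 8.28 and 7.76 in neurospheres. The groups did not overlap, but the difference of 0.90 (SE 0.49) did not pass the test (adjusted p = 0.227), and whether this probe set also reads the introduced Myc was not tested. Mycn, its family member, stood at 13.65, 13.31 and 13.22 in secondary tumors and at 12.38, 12.79 and 12.86 in neurospheres. It was 1.64-fold higher (adjusted p = 0.0164), a call that ended in the fit of all 26 arrays (adjusted p = 0.126), without secondary tumor 1 (0.0517) and without neurosphere 1 (0.0602). Cdkn2c, the deleted inhibitor of cyclin-dependent kinases, lay under the array median in every array, at 4.03, 3.91 and 3.97 in secondary tumors and 3.39, 3.55 and 3.51 in neurospheres. Its difference of 0.48 passed the test (adjusted p = 0.0117), and the labels do not say whether the probe set lies in the deleted part.

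Neurod1, the helix-loop-helix factor of granule neuron differentiation, was at 12.54, 11.57 and 11.60 in secondary tumors and at 3.76, 3.84 and 4.13 in neurospheres. It was 255-fold higher, 8.0 on the log2 scale (SE 0.25, adjusted p = 8.03e-08). Insm1, a zinc-finger factor of neuronal and neuroendocrine precursors, had values of 10.89, 10.08 and 10.25 in secondary tumors, against 4.10, 4.53 and 3.90 in neurospheres, a difference of 6.22 (adjusted p = 3.18e-07). For both genes the lowest tumor array lay more than 5 log2 units above the highest culture array. Stmn2, which regulates microtubules in growing axons, was 79-fold higher (9.64, 8.88 and 10.11 in secondary tumors, 3.22, 3.09 and 3.41 in neurospheres). Elavl3, an RNA-binding protein of neurons, was 36.7-fold higher, with 9.24, 8.93 and 9.0 in secondary tumors and 3.77, 3.97 and 3.83 in neurospheres. In bulk RNA, more cells that express a gene and more of its RNA per cell cannot be told apart, which holds for every result here.

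**Figure D1:**
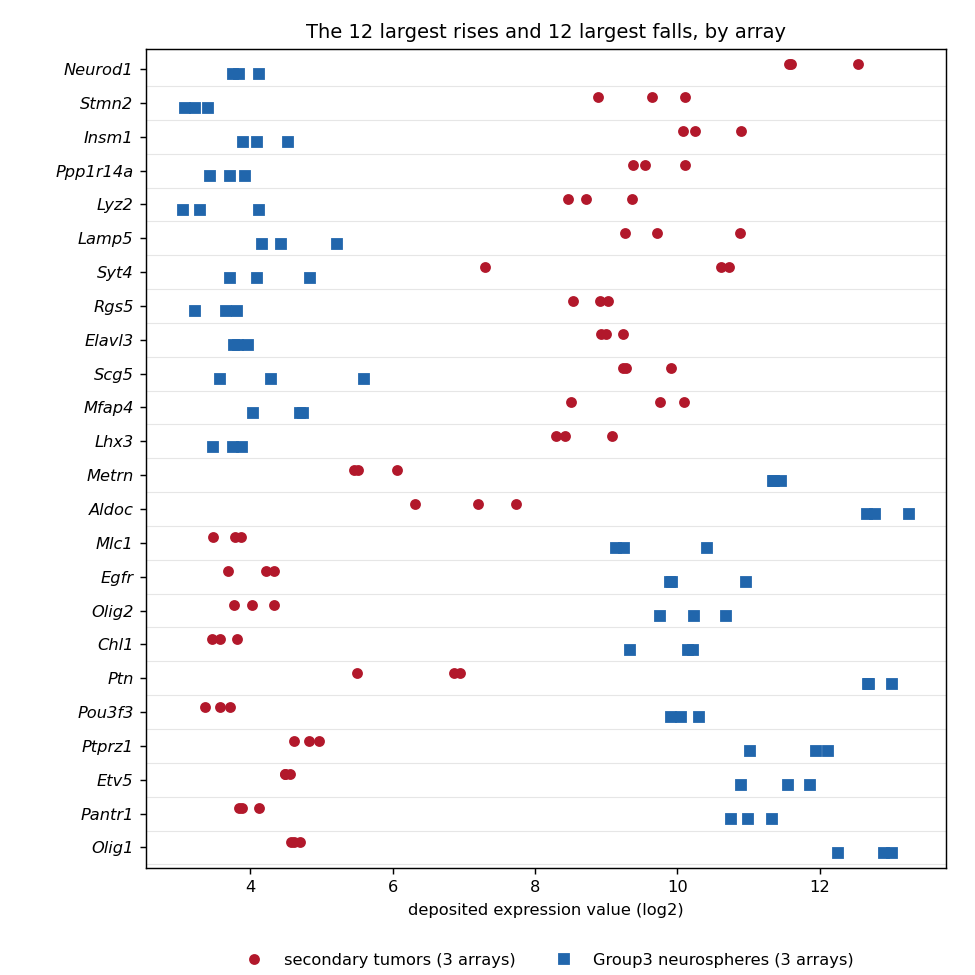
Deposited log2 value (horizontal axis) in each of the 3 secondary tumor arrays (circles) and the 3 Group3 neurosphere arrays (squares) for the 12 genes that rose most and the 12 that fell most among called genes whose arrays did not overlap. Neurod1 leads the rises with a difference of 8.0 and Olig1 the falls with -8.10, and Syt4 shows secondary tumor 1 apart from the other tumors.

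The list of granule neuron differentiation had 18 measured genes with a median difference of 1.48; rises were called for 9 of them and falls for 3. Besides Neurod1, Stmn2 and Elavl3, those with the largest rises were Rbfox3, the antigen known as NeuN, at 4.78, and Tubb3, the neuronal beta-tubulin, at 4.57. Etv1, an ETS factor of maturing granule cells, went the other way: it was at 4.65, 4.31 and 4.5 in secondary tumors and at 9.78, 9.81 and 9.84 in neurospheres, 40-fold lower (difference -5.32, adjusted p = 4.64e-06). Atoh1 and the mature granule cell receptor gene Gabra6, picked after their values were seen as the early and late ends of the lineage, did not pass the test. Atoh1 was at 3.26, 5.51 and 5.94 in secondary tumors and 3.47, 3.58 and 3.99 in neurospheres, with secondary tumors 2 and 3 above every neurosphere and secondary tumor 1 below them all. Gabra6 stayed between 3.36 and 3.79 in all 6 arrays.

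Other neuronal genes moved less uniformly. Among 22 measured markers of forebrain and other neurons 3 rose and 1 fell, beside 9.55% and 14.2% of all genes. The rises were those of Nefh, a neurofilament (4.47), Snap25, a synaptic fusion protein (3.92), and Camkv (3.05). Gad1, the enzyme that makes GABA, fell: it was at 3.43, 3.68 and 3.68 in secondary tumors and at 7.83, 7.98 and 8.65 in neurospheres, 23.6-fold lower. The other 18 genes of that list did not pass the test. Without secondary tumor 1, 5 rose, and without neurosphere 3, 2 fell. Further large rises belonged to the neuronal vesicle and secretion genes Lamp5 (5.35), Syt4 (5.33) and Scg5 (4.99), to Ppp1r14a, an inhibitor of myosin phosphatase (5.99), to Mfap4, a matrix-associated glycoprotein (4.96), and to the LIM homeobox factor Lhx3 (4.90). Syt4 was at 7.30 in secondary tumor 1 and at 10.72 and 10.62 in secondary tumors 2 and 3, with 4.84, 4.09 and 3.72 in neurospheres.

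Of 16 measured markers proposed for human Group 3 tumors and the photoreceptor program, 2 rose and none fell. Among all genes 9.55% rose and 14.2% fell. Many were dim: a filter on dim genes left 6, of which 2 rose. The filter lets a gene pass through its brighter group alone, so shares among the 6 are not comparable with those of all genes. The mean level of the list was 4.24 to 4.37 in secondary tumors and 3.84 to 4.09 in neurospheres. The 2 of 16 that rose were Npr3, a natriuretic peptide receptor (2.87, adjusted p = 0.0142), and Nrn1, a neurite growth factor (2.35, adjusted p = 0.0225). Both calls ended without secondary tumor 2 (adjusted p = 0.0571 for Npr3 and 0.05 for Nrn1) and in further leave-one-out fits. The photoreceptor factor Crx, named after its values were seen, was between 3.41 and 3.86 in secondary tumors and between 3.46 and 3.71 in neurospheres.

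Genes of neural stem and glial progenitor cells fell. Of 25 measured, 16 were lower and 2 higher in secondary tumors, with a median difference of -2.02. Olig1, a helix-loop-helix factor of the oligodendrocyte lineage, was at 4.70, 4.62 and 4.57 in secondary tumors and at 13.02, 12.90 and 12.26 in neurospheres. It was 274-fold lower (difference -8.10, SE 0.98, adjusted p = 0.000249). Its relative Olig2 was 72.9-fold lower, at 4.02, 3.77 and 4.34 in secondary tumors and 10.69, 10.23 and 9.76 in neurospheres, and neither gene had overlapping groups. Sox2, the stem cell factor of neural tissue, was at 4.07, 5.41 and 6.58 in secondary tumors and at 10.78, 11.06 and 10.43 in neurospheres, 42.4-fold lower. Sox21, a related factor, fell by 4.56. Sox9, which promotes glial fate and was chosen after its values were seen, fell by 4.28. The radial glia lipid carrier Fabp7 was at 6.43, 8.38 and 8.58 in secondary tumors, against 13.32, 13.30 and 12.39 in neurospheres. Prom1, the membrane protein CD133 used to sort stem-like tumor cells, moved against the rest of its list: it was at 9.73, 10.44 and 10.77 in secondary tumors and at 5.02, 5.47 and 6.99 in neurospheres, 22.4-fold higher (adjusted p = 0.000133). The other rise, of the RNA-binding protein gene Msi1, was 1.11; it was named to complete the count after its values were seen.

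Astrocyte genes took the same direction, with 8 of 13 measured lower, none higher and a median of -2.62. Aldoc, the brain aldolase, was at 6.32, 7.20 and 7.73 in secondary tumors and at 13.26, 12.66 and 12.78 in neurospheres. Acsbg1, an acyl-CoA synthetase of glia, fell by 4.56. The calcium-binding protein gene S100b fell by 4.26, and the glutamate transporter gene Slc1a3 fell by 2.63. The defining markers of mature astrocytes were dim in both groups. Gfap, the astrocyte filament, lay between 3.47 and 3.89 in secondary tumors and between 3.75 and 4.54 in neurospheres, and the water channel gene Aqp4 between 3.25 and 4.95 in secondary tumors and between 4.14 and 4.25 in neurospheres; both were named after their values were seen. None of 13 measured oligodendrocyte genes passed the test in limma, and 2 had an unadjusted p under 0.05, both lower. With these 6 arrays fitted alone 3 rose and 1 fell, and with array weights 2 fell. Cnp, a myelin enzyme gene, was at 4.84, 4.54 and 4.29 in secondary tumors and at 7.23, 7.57 and 6.95 in neurospheres, without overlap. Its adjusted p was 0.0838 in the fit that also holds the primary tumors and the Trp53 Cdkn2c neurospheres, and 0.000698 in the fit of these 6 arrays. The primary tumors ran from 3.95 to 9.46.

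Ptprz1, a receptor phosphatase, was at 4.62, 4.97 and 4.82 in secondary tumors and at 11.95, 12.12 and 11.02 in neurospheres, 119-fold lower (adjusted p = 9.71e-05). Its secreted ligand Ptn was 82.4-fold lower, at 5.5, 6.94 and 6.86 in secondary tumors and 12.69, 12.68 and 13.02 in neurospheres. The groups did not overlap for either gene. Chl1, an adhesion molecule of the L1 family, fell by 6.29, but 2 of its 4 probe sets were not called. Mlc1, a membrane protein of astrocytes, fell by 5.88.

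Among 31 measured genes of EGF and FGF signalling, 17 fell and none rose, with a median of -1.56. Fgf1, a ligand of the FGF receptors, was at 4.13, 3.89 and 3.95 in secondary tumors and at 7.32, 8.45 and 6.43 in neurospheres, a difference of -3.41. At the receptors, Egfr, the receptor for EGF, was at 3.69, 4.22 and 4.34 in secondary tumors and at 9.92, 10.96 and 9.90 in neurospheres. Egfr was 72.1-fold lower (difference -6.17, SE 0.49, adjusted p = 2.02e-05), and 3 of its 6 probe sets were called, all in the same direction. Fgfr1 was 16.3-fold lower, at 5.14, 5.58 and 5.61 in secondary tumors against 9.23, 9.67 and 9.50 in neurospheres.

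Targets and feedback inhibitors that the ERK branch of these pathways is known to switch on fell with the receptors. Etv5, an ETS factor induced by FGF, was at 4.49, 4.49 and 4.56 in secondary tumors and at 10.89, 11.86 and 11.55 in neurospheres, 121-fold lower (adjusted p = 5.51e-06). Spry2, which restrains receptor signalling, was at 5.12, 5.11 and 5.62 in secondary tumors and at 10.16, 10.22 and 10.12 in neurospheres, 29.6-fold lower, and its relative Spry4 was 22.7-fold lower. Dusp6, the phosphatase of ERK, was at 6.35, 7.94 and 7.95 in secondary tumors and at 10.74, 11.60 and 10.82 in neurospheres, 12.5-fold lower. The arrays of the 2 groups did not overlap for any of these 4 genes. The remaining 14 genes of the list did not pass the test.

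**Figure D2:**
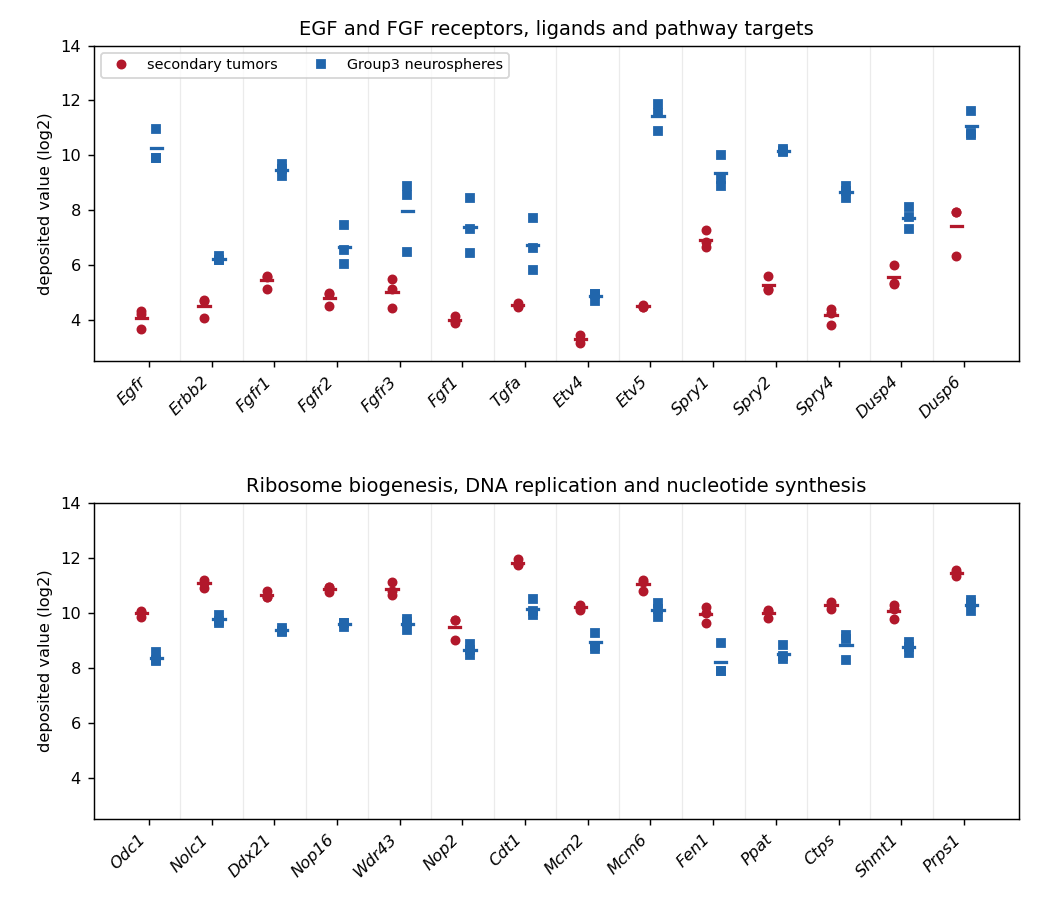
Deposited log2 value (vertical axis) in each array for selected genes. The upper panel shows EGF and FGF signalling. The lower panel shows MYC targets and ribosome biogenesis, DNA replication and nucleotide synthesis. Secondary tumors are circles left of Group3 neurospheres as squares, with bars at the means of 3 arrays. The falls in the upper panel reach -6.92 for Etv5, while the rises in the lower panel stay between 0.84 for Nop2 and 1.72 for Fen1.

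Notch signalling, in which a membrane receptor releases a fragment that acts on RBPJ-bound genes such as the Hes repressors, was split. Of 23 measured genes 6 fell and 3 rose, beside 14.2% and 9.55% of all genes. The receptor Notch1 was at 6.72, 7.22 and 7.56 in secondary tumors and at 10.59, 10.66 and 10.45 in neurospheres, 10.5-fold lower (adjusted p = 0.000914). Its target Hes1 was 8.85-fold lower, at 4.21, 5.20 and 4.67 in secondary tumors and at 7.68, 7.5 and 8.35 in neurospheres. Hes5, another target, was at 4.11, 4.89 and 4.5 in secondary tumors and at 8.49, 7.64 and 5.41 in neurospheres, with neurosphere 3 close to the tumors (difference -2.68, adjusted p = 0.0117, and 0.0536 in the fit of these 6 arrays alone). Mfng and Lfng, fringe glycosyltransferases that modify Notch, moved apart: Mfng was 14.9-fold higher, at 10.83, 9.19 and 8.98 in secondary tumors and 5.32, 5.60 and 6.39 in neurospheres, whereas Lfng was 2.17-fold lower, at 4.66, 4.65 and 4.73 in secondary tumors and 5.65, 6.40 and 5.35 in neurospheres. Without neurosphere 2, 3 genes of the list were lower instead of 6.

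The 250 bases before the starts of Hes5 and Lfng are shown because both genes fell and both windows hold the letters GTGGGAA, the core that RBPJ is known to bind, on one strand or the other. Matches are in capitals, and the sequences are those of RefSeq on build GRCm38.p6, 5′ to 3′ on the strand of the gene. Hes5 lies on the plus strand (chr4:154960673-154960922), with matches that begin 226 and 83 bases before the start, and Lfng also (chr5:140607091-140607340), with a match 109 bases before it.
Hes5: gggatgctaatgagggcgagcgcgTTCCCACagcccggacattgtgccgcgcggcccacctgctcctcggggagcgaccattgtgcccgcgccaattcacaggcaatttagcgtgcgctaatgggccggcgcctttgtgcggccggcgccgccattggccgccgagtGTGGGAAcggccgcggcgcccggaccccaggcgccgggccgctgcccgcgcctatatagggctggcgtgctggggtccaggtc
Lfng: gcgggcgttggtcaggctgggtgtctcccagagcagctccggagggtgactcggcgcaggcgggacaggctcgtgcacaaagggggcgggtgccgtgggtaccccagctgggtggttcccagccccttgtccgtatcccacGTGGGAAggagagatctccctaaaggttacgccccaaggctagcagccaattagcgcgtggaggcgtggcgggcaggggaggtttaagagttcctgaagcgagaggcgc
Windows of 300 bases, with 50 bases after the start, were searched for all genes, and 6.38% of 32851 held these letters. Of 18 genes of the Notch list with a window 3 held them, Hes5, Lfng and Hey2, and Hey2 did not pass the test of expression. Those 18 genes had 23 windows, and a gene counted if any of its windows matched. The 6.38% is a share of windows, so it is not the same measure as a share of genes.

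Other developmental pathways were counted in the same way. In the list of hedgehog and granule progenitor genes 7 of 18 fell and 1, Mycn, rose. Gli3, which acts mainly as the repressor of hedgehog target genes, was at 4.15, 4.21 and 4.35 in secondary tumors and at 7.87, 7.95 and 7.79 in neurospheres, 12.4-fold lower, and the coreceptor gene Cdon was 5.05-fold lower; a second probe set of each was not called. The pathway's output gene Gli1, named after its values were seen, was at 3.62, 3.97 and 3.80 in secondary tumors and at 3.40, 3.83 and 4.55 in neurospheres (adjusted p = 0.798). Leaving out neurosphere 1, fitting all 26 arrays or fitting these 6 alone each left 4 lower genes. For WNT 9 of 31 measured genes fell and none rose. Tcf7l2, the nuclear partner of beta-catenin, was 12.2-fold lower, the ligand gene Wnt5a 9.87-fold lower and the feedback target Axin2 5.94-fold lower, at 4.08, 4.4 and 4.58 in secondary tumors and 6.92, 7.5 and 6.35 in neurospheres. A second probe set of Axin2 was not called (-0.29). For TGF-beta and BMP 4 of 29 fell and none rose, a share close to the 14.2% of all genes that fell; without secondary tumor 1, 6 fell. The largest falls were those of the ligand gene Bmp7 (-2.11) and the mediator gene Smad3 (-1.86). The call for Smad3 ended without neurosphere 2 (adjusted p = 0.0738) and with these 6 arrays alone (0.079), and 1 of its 3 probe sets was called.

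Matrix and adhesion genes fell as well. Of 31 measured, 13 fell and 3 rose, with a median of -0.83. Tnc, tenascin C of the stem cell matrix, was at 4.34, 5.07 and 5.39 in secondary tumors and at 10.63, 11.22 and 8.91 in neurospheres, 40-fold lower. The proteoglycan genes of brain matrix moved with it, with differences of -5.24 for Bcan and -4.89 for Vcan. The cadherin gene Cdh4 fell by 4.16, and the integrin gene Itga9 fell by 3.57. L1cam, the adhesion molecule of growing axons, rose in contrast: it was at 8.44, 5.97 and 7.38 in secondary tumors and at 4.97, 4.89 and 3.98 in neurospheres (2.65, adjusted p = 0.00795). The other rises were small, 0.57 for the cadherin gene Cdh2 and 0.46 for the integrin gene Itga3, both named to complete the count after their values were seen. Without neurosphere 2, without neurosphere 3, with these 6 arrays alone or with the mean of probe sets 1 gene rose instead of 3, and with the mean of probe sets the median was -0.39.

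**Figure D3:**
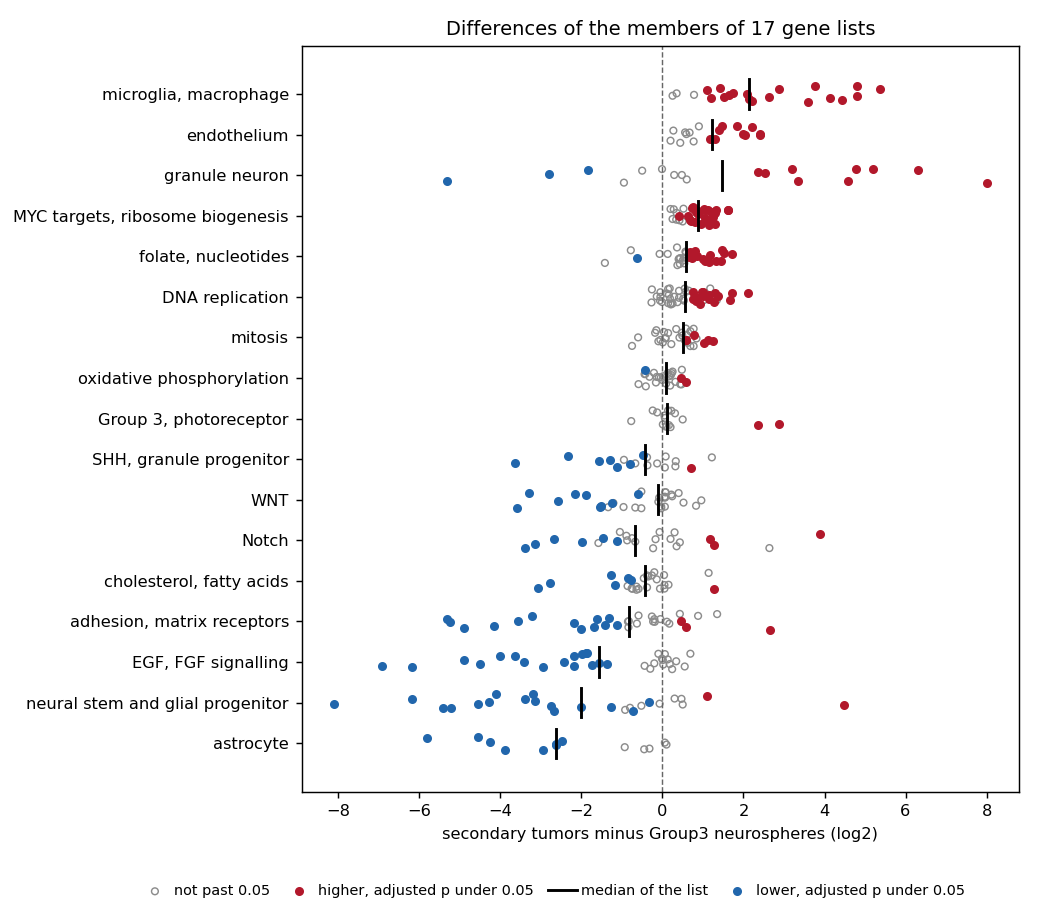
Difference of secondary tumors minus Group3 neurospheres (log2, horizontal axis) for every measured gene of 17 gene lists, 1 list per row, with filled points for adjusted p under 0.05 and a bar at the median of the list. Medians run from 2.14 for microglia and macrophage markers to -2.62 for astrocyte genes, while the list of MYC targets and ribosome biogenesis sits in a narrow band above 0.

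Genes for making ribosomes and other genes that MYC is known to drive, taken as 1 list, rose together by small amounts. Of 35 measured, 27 rose and none fell, and every measured member had a difference above 0 (0.20 to 1.63, median 0.88). The polyamine enzyme gene Odc1 was at 10.06, 10.04 and 9.86 in secondary tumors and at 8.28, 8.24 and 8.57 in neurospheres, 3.09-fold higher (adjusted p = 6.51e-05). Nolc1, a nucleolar chaperone, was at 11.10, 11.21 and 10.93 in secondary tumors and at 9.94, 9.73 and 9.64 in neurospheres, 2.48-fold higher. Ddx21, a nucleolar helicase, was 2.45-fold higher, at 10.60, 10.80 and 10.60 in secondary tumors and 9.32, 9.44 and 9.35 in neurospheres. In each of these the groups were separated by several times their own spread. Myc itself did not pass the test, as given above.

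The promoter of Nop2, an rRNA methyltransferase of this list, is shown because it holds CACGTG, the E-box that MYC with MAX is known to bind (in capitals, 60 bases before the start, plus strand, chr6:125131633-125131882, GRCm38.p6, RefSeq). Nop2 was at 9.03, 9.76 and 9.74 in secondary tumors and at 8.66, 8.88 and 8.48 in neurospheres, 1.79-fold higher (adjusted p = 0.0131), and was picked after its values were seen.
Nop2: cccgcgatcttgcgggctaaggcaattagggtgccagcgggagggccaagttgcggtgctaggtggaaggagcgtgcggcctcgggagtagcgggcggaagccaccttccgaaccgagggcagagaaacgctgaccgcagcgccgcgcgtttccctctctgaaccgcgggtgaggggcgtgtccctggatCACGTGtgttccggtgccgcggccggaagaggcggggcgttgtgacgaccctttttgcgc
These letters read the same on both strands and occurred in 7.15% of all 300-base windows. They were found in 6 of the 28 genes of the list with a window. Those 28 genes had 31 windows, and a gene counted if any of its windows matched. Of the 6, 5 rose (Nop2, Pes1, Utp20, Utp4 and Wdr43), the exception being the lactate dehydrogenase gene Ldha. In the whole list 27 of 35 rose, so the 5 of 6 does not set genes with the letters apart.

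DNA replication genes rose in part: 18 of 46 were higher and none lower, with a median of 0.56. E2f1, a factor that switches on S phase genes, was at 7.83, 8.76 and 8.13 in secondary tumors and at 6.48, 5.94 and 5.92 in neurospheres, 4.36-fold higher (adjusted p = 0.000236). Cdt1, which loads the replicative helicase, was at 11.98, 11.75 and 11.78 in secondary tumors and at 10.51, 9.92 and 10.06 in neurospheres, 3.19-fold higher. Fen1, the flap nuclease of lagging strand synthesis, was 3.3-fold higher and the helicase subunit gene Mcm2 2.44-fold higher. The cultures differed among themselves here: the mean level of the list was 8.97, 9.34 and 9.29 in secondary tumors 1, 2 and 3, against 8.95, 8.13 and 8.61 in neurospheres 1, 2 and 3. With these 6 arrays fitted alone 10 genes rose instead of 18.

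The promoter of Mcm6, another helicase subunit, is shown because it holds both letter strings searched for E2F, TTTGGCGC and TTTCGCGC, on either strand (capitals, minus strand, chr1:128359706-128359955, GRCm38.p6, RefSeq). Near 110 bases before the start they overlap in 1 run. Mcm6 was at 10.82, 11.19 and 11.14 in secondary tumors and at 10.37, 9.84 and 10.16 in neurospheres, 1.90-fold higher (adjusted p = 0.00534), and was picked after its values were seen.
Mcm6: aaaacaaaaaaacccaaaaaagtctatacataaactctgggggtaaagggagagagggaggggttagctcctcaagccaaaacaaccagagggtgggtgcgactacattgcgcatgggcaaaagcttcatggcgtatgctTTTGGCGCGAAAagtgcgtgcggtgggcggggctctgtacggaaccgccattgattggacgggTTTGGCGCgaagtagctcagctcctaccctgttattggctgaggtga
The first string occurred in 0.514% and the second in 0.323% of all 300-base windows. Each was found in 7 of the 35 replication genes with a window, and those 35 genes had 42 windows. Of the 7 genes, 5 rose for the first string and 2 for the second, beside 18 of 46 in the whole list.

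Of 32 measured mitosis genes 6 rose and none fell, among them Kif11, the spindle motor (1.25), Top2a, which untangles chromosomes (1.12), and Espl1, the protease separase (1.03), and 3 rose without secondary tumor 2. The call for Top2a ended without secondary tumor 2 (adjusted p = 0.0501) and with these 6 arrays alone (0.0705). The proliferation antigen gene Mki67, named after its values were seen, was at 10.44, 10.92 and 10.96 in secondary tumors and at 10.91, 10.56 and 10.83 in neurospheres, a difference of 0.01. Of 29 repair genes 8 rose and 1, Ercc1, fell, led by Ung, the uracil DNA glycosylase (1.46), and Exo1, an exonuclease of mismatch repair (1.27), and 5 rose without secondary tumor 2, secondary tumor 3, neurosphere 2 or neurosphere 3.

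Enzymes of folate and nucleotide metabolism, the field in which pemetrexed and gemcitabine act, rose in 14 of 30 genes and fell in 1. Fpgs, which adds glutamates to folates and to pemetrexed, was at 9.40, 9.21 and 8.68 in secondary tumors and at 7.42, 7.23 and 7.46 in neurospheres, 3.3-fold higher (adjusted p = 0.00118). Ggh, which removes those glutamates, was the gene that fell, at 8.32, 8.32 and 8.46 in secondary tumors and 8.76, 9.16 and 9.04 in neurospheres (1.54-fold lower, adjusted p = 0.0105). The groups did not overlap for either enzyme. Ppat, the first enzyme of purine synthesis, was 2.78-fold higher, Ctps, which makes CTP, 2.71-fold higher, and Shmt1, which loads folate with a carbon from serine, 2.48-fold higher. Dut, which removes dUTP, was 2.85-fold higher, at 11.45, 11.28 and 11.29 in secondary tumors and 10.12, 9.25 and 10.11 in neurospheres. The antifolate target genes Tyms and Gart, named after their values were seen, did not pass the test, with differences of 0.44 (SE 0.31, adjusted p = 0.375) and 0.37 (SE 0.24, adjusted p = 0.312).

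Lipid and energy genes were mixed, and their counts stand beside the 9.55% of all genes that rose and the 14.2% that fell. In cholesterol and fatty acid synthesis 6 of 26 genes fell and 1 rose. Scd1, the stearoyl-CoA desaturase, was at 8.39, 8.68 and 8.78 in secondary tumors and at 11.70, 11.60 and 11.77 in neurospheres, 8.41-fold lower (adjusted p = 0.000552), and the sterol reductase gene Tm7sf2 was 6.83-fold lower. Hsd17b7, a sterol enzyme gene, rose 2.42-fold. Of its 3 probe sets 1 was called, and of the 2 of Scd1 also 1. The number of falls depended on neurosphere 2. The list mean was 8.77, 8.91 and 8.84 in secondary tumors 1, 2 and 3, against 9.78, 8.84 and 9.48 in neurospheres 1, 2 and 3. Without neurosphere 2, 12 genes were lower, while 3 were lower without neurosphere 1 or with these 6 arrays alone. For hypoxia and glycolysis, 31 genes were measured, of which 6 rose and 2 fell. Pfkp, a phosphofructokinase, was at 9.15, 9.32 and 9.29 in secondary tumors and at 7.76, 6.57 and 7.63 in neurospheres, 3.82-fold higher, and hexokinase 2 (Hk2) was 2.80-fold higher. The number of rises was 3 without secondary tumor 1 or without neurosphere 2, and without neurosphere 2, 4 genes fell. The list mean was 8.31, 8.95 and 8.95 in secondary tumors 1, 2 and 3, against 9.29, 7.94 and 8.96 in neurospheres 1, 2 and 3, so that secondary tumor 1 and neurosphere 2 were the lowest of their groups. Of 27 oxidative phosphorylation genes 2 rose and 1 fell, none by as much as 2-fold, while leaving out 1 array gave 1 to 4 rises and 0 to 2 falls and all 26 arrays gave 4 rises and 5 falls. Of 29 genes of serine synthesis and amino acid stress 2 rose and 2 fell, but leaving out 1 array gave 1 to 3 rises and 1 or 2 falls. In the main fit the counts of the oxidative phosphorylation and serine lists were no larger than the shares of all genes give.

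Markers of host cells were another group of large rises. Of 21 measured microglia and macrophage markers 18 rose and none fell, with a median of 2.14. Lyz2, the lysozyme of macrophages, was at 8.47, 9.36 and 8.71 in secondary tumors and at 4.12, 3.05 and 3.3 in neurospheres, 41.1-fold higher (adjusted p = 2.58e-06). C1qa, a complement subunit made by microglia, was at 7.37, 8.99 and 8.32 in secondary tumors and at 3.33, 3.22 and 3.70 in neurospheres, 28-fold higher. The list mean was lowest in secondary tumor 1 and highest in secondary tumor 2 (5.89, 7.16 and 6.42 for secondary tumors 1 to 3), against 3.90 to 4.04 in neurospheres. The 3 markers that did not pass the test were P2ry12, Tmem119 and Itgam, of which the first pair is used to tell resident microglia from other macrophages. This depended on the fit: 20 of the 21 markers rose without secondary tumor 1 or with array weights, and 15 with these 6 arrays alone. P2ry12 was at 3.32, 4.77 and 3.87 in secondary tumors and at 3.15, 3.22 and 3.27 in neurospheres.

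**Figure D4:**
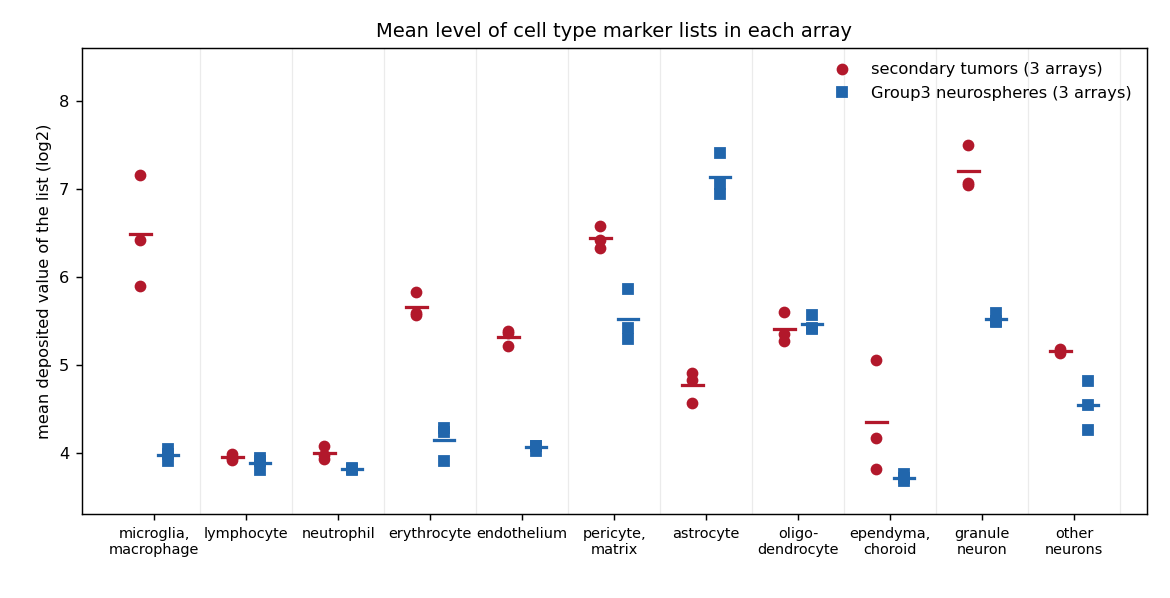
Mean deposited log2 value of the measured genes of each cell type marker list (vertical axis) in each array, with secondary tumors as circles left of Group3 neurospheres as squares and bars at the means of 3 arrays. Microglia, endothelial and granule neuron lists are higher and the astrocyte list lower in every secondary tumor array, and the lymphocyte and oligodendrocyte lists overlap.

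Blood vessel genes were higher as well. Of 18 endothelial markers 10 rose and none fell, with a median of 1.23, and list means of 5.21, 5.36 and 5.38 in secondary tumors against 4.02 to 4.08 in neurospheres. Cldn5, the tight junction protein of brain vessels, was at 5.82, 7.15 and 6.46 in secondary tumors and at 4.01, 3.77 and 4.41 in neurospheres, 5.33-fold higher (adjusted p = 0.00923). Rgs5, a pericyte gene, was at 8.92, 8.54 and 9.02 in secondary tumors and at 3.82, 3.66 and 3.22 in neurospheres, 38.2-fold higher (adjusted p = 0.000183). Of 19 pericyte and matrix genes 4 rose and none fell. With secondary tumors 2 and 3 averaged as 1 sample, without secondary tumor 3 or without neurosphere 1, the endothelial count was 6 instead of 10.

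Among markers of blood cells, red cell genes rose in part. Hba-a1, a globin, was at 8.76, 9.70 and 8.77 in secondary tumors and at 4.74, 4.53 and 4.98 in neurospheres, 20-fold higher, and Hbb-b2 was 9.97-fold higher, while the remaining 3 of 5 measured genes did not pass. Both globins have near-identical copies, as Lyz2 has Lyz1, so that a probe set may read more than 1 of them, and 1 of 3 probe sets of Hbb-b2 was called. None of 14 lymphocyte markers and none of 10 neutrophil markers passed the test in limma, and 2 and 0 of them had an unadjusted p under 0.05. The lymphocyte list mean was 3.92 to 3.99 in secondary tumors and 3.80 to 3.94 in neurospheres. These host markers moved in the same arrays as the neuronal, glial and signalling genes above, and their part in those results was not tested. Choroid plexus and ependyma genes gave 1 rise in 10, near the 9.55% of all genes that rose. The count became 0 without secondary tumor 1 or without any 1 of the neurospheres, and 2 without secondary tumor 2. Ttr, the transthyretin of choroid plexus, named after its values were seen, was at 11.55, 3.91 and 7.60 in secondary tumors and between 3.76 and 4.08 in neurospheres, so that 1 secondary tumor was at the culture level and 2 were far above it.

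The remaining lists are read beside the 9.55% of all genes that rose and the 14.2% that fell. Of 25 interferon response genes 2 fell, with differences of -3.27 for Ifi27 and -2.22 for Ifit2, and none rose; without secondary tumor 2 or neurosphere 2 Ifit2 was not called (adjusted p = 0.0557 and 0.0573), and without secondary tumor 1, 2 genes rose. Of 19 antigen presentation genes 1 rose, the class II chain gene H2-Aa (2.85), and 1 fell, H2-DMa (-1.44). The rises were 2 without secondary tumor 3 or neurosphere 2, 4 with these 6 arrays alone and 6 with array weights, and 8 genes were higher at an unadjusted p under 0.05. Of 15 complement and acute phase genes Serping1 and C1ra rose and the copper carrier gene Cp was 29-fold lower, while the small rise of C1ra (0.71) ended without secondary tumor 2 (adjusted p = 0.124). In the IGF list 4 of 16 fell and 1 rose: Igf2, the fetal growth factor, was at 8.26, 8.12 and 7.97 in secondary tumors and at 4.53, 4.12 and 4.98 in neurospheres, 11.9-fold higher (adjusted p = 0.00548), although its second probe set was not called. Igfbp4, a protein that binds IGF, was 6.82-fold lower. Among 34 Hox and other homeobox genes 5 fell and 3 rose. The filter on dim genes left 11 of them. It lets a gene pass through its brighter group alone, so shares among the 11 are not comparable with those of all genes. Hoxa5, a factor of position along the body axis, was at 3.36, 3.74 and 4.53 in secondary tumors and at 8.52, 8.89 and 8.85 in neurospheres, 29.4-fold lower (adjusted p = 1.45e-06). Without secondary tumor 1, 2 genes of that list fell instead of 5, and with all 26 arrays 2 of the IGF list fell instead of 4. Among 22 BCL2 family and apoptosis genes 3 rose and 6 fell. Bcl2a1a, a survival gene of blood cells with near-identical copies, rose by 2.41 and Bcl2 itself had a difference of -1.39, a call that ended without neurosphere 2 (adjusted p = 0.0511) or secondary tumor 1 (0.084). A second probe set of Bcl2 was not called. Without neurosphere 2, 1 of that list rose and 3 fell. Of 22 p53 target genes Perp and Mdm2 rose and Ddb2 and Plk2 fell. Perp was not called with all 26 arrays (adjusted p = 0.066), nor Mdm2 without secondary tumor 1 (0.0781), and leaving out 1 array gave 1 to 3 rises. Of 27 immediate early genes 2 rose and 3, with Dusp6 among them, fell, and 1 fell without secondary tumor 1 or without neurosphere 3.

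Secondary tumors were then set against primary tumors in the same fit, which tests whether their difference from the shared neurospheres is larger or smaller than that of primary tumors. Of 17097 genes 59 differed (0.345%), 16 higher and 43 lower in secondary tumors, and 2158 had an unadjusted p under 0.05. Of the 16 higher genes 14 were also higher than in neurospheres, and of the 43 lower genes 30 were lower than in neurospheres and 6 higher. Alternative fits moved these counts widely, from 1 to 103 higher and from 0 to 201 lower genes; the count of 0, from limma on the 6 tumor arrays alone, stands beside 1135 lower genes with an unadjusted p under 0.05. The genes named next were chosen because they differed, and some with their values in view.

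Pou3f3 and its neighbour Pantr1, a long noncoding RNA gene, were among the largest falls and separated all 3 groups. Pou3f3, a POU factor of neural progenitors, was at 3.37, 3.58 and 3.71 in secondary tumors, 6.75, 7.04 and 8.61 in primary tumors and 9.91, 10.30 and 10.05 in neurospheres. It was 92.6-fold lower than in neurospheres (adjusted p = 3.52e-06) and 3.91 log2 units lower than in primary tumors (adjusted p = 0.00324), though its second probe set was not called against neurospheres. Pantr1 was at 3.84, 4.13 and 3.88 in secondary tumors, 6.32, 7.04 and 8.24 in primary tumors and 10.76, 11.33 and 10.99 in neurospheres. Its difference from primary tumors was -3.25 (adjusted p = 0.0162) and was kept in 9 of 14 alternative fits.

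Rlf, a zinc-finger gene, went the other way. It was at 8.58, 7.62 and 7.64 in secondary tumors, 3.87, 4.71 and 4.09 in primary tumors and 4.44, 4.10 and 4.55 in neurospheres, so that primary tumors and cultures overlapped and secondary tumors stood alone. Secondary tumors were 12-fold above neurospheres (adjusted p = 2.07e-05) and 3.72 log2 units above primary tumors (adjusted p = 0.000831), from a single probe set. Bclaf1, a nuclear factor of transcription and splicing, was at 9.80, 9.56 and 9.27 in secondary tumors, 7.26, 7.67 and 7.55 in primary tumors and 7.30, 6.96 and 7.25 in neurospheres. Ramp2, which pairs with the calcitonin receptor-like receptor, was at 12.80, 12.63 and 12.54 in secondary tumors, 9.64, 10.67 and 10.05 in primary tumors and 10.84, 11.02 and 10.87 in neurospheres. Another probe set of Ramp2 was not called against neurospheres and pointed the other way (-0.99). The gene of that receptor, Calcrl, fell: it was at 4.31, 4.62 and 4.22 in secondary tumors and 8.98, 9.76 and 9.50 in neurospheres, 32.6-fold lower (adjusted p = 0.000284). Dlx1, a homeobox factor of forebrain interneurons, was at 7.41, 6.86 and 7.32 in secondary tumors, 3.61, 3.76 and 3.65 in primary tumors and 3.65, 6.19 and 4.30 in neurospheres. Rlf, Ramp2, Bclaf1 and Calcrl, and Jak2 given below, lie outside the rule for named genes and were chosen after their values were seen.

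**Figure D5:**
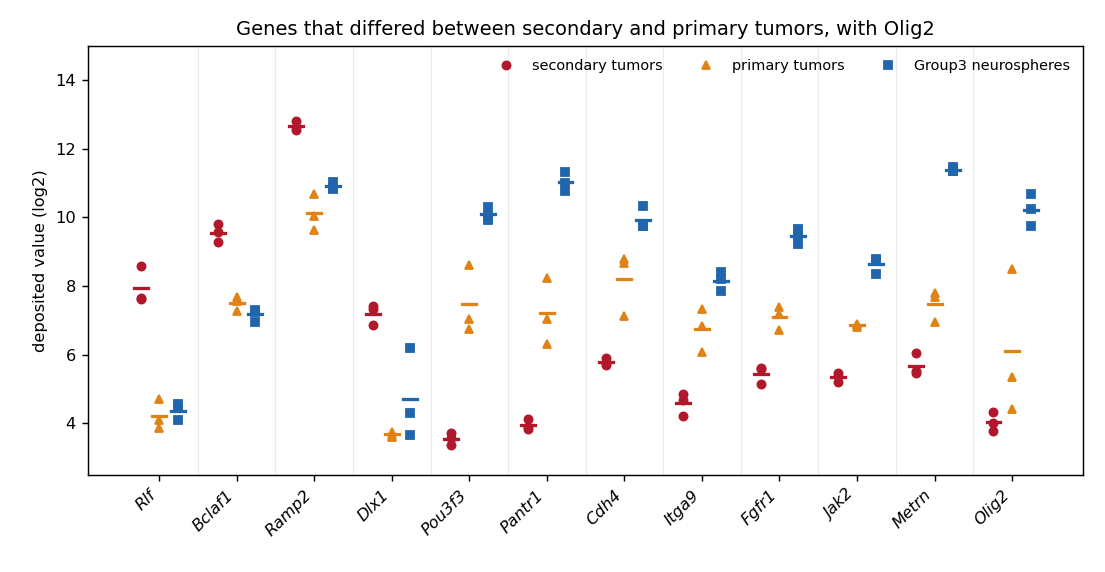
Deposited log2 value (vertical axis) of 11 genes that differed between secondary and primary tumors, and of Olig2, which did not, in secondary tumors (circles), primary tumors (triangles) and Group3 neurospheres (squares), with bars at the means of 3 arrays. Rlf, Bclaf1, Ramp2 and Dlx1 are highest in secondary tumors, while for Pou3f3, Pantr1 and Fgfr1 primary tumors lie between the other groups.

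Among the signalling and adhesion genes, Fgfr1, Cdh4 and Itga9 were lower in secondary than in primary tumors too. Fgfr1 was at 5.14, 5.58 and 5.61 in secondary tumors and at 6.73, 7.4 and 7.18 in primary tumors, both below the neurosphere values given above (difference -1.66, SE 0.20, adjusted p = 0.012). Jak2, the kinase of cytokine receptors, was at 5.21, 5.37 and 5.47 in secondary tumors, 6.86, 6.80 and 6.90 in primary tumors and 8.80, 8.73 and 8.36 in neurospheres. Of the measured list members 4 passed the test against primary tumors, namely Fgfr1, Cdh4, Itga9 and Dlx1, which does not show that the others were alike. For Neurod1 the difference was 0.17 (SE 0.25, adjusted p = 0.843), for Egfr -0.50 (SE 0.49, adjusted p = 0.728) and for Lyz2 0.36 (SE 0.30, adjusted p = 0.665). Olig2 was at 4.02, 3.77 and 4.34 in secondary tumors and at 5.35, 4.43 and 8.5 in primary tumors, a difference of -2.05 with an SE of 0.79 (adjusted p = 0.316) in which 1 primary tumor was far above the others.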

How the data were processed

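RNA of 26 samples was measured on arrays. The deposited log2 expression values came from RMA, version not given, and Partek 6.6, per the submitters' processing notes; they were used unchanged, and how the authors corrected background is not given in the sources used here. Of 45141 probe sets, 104 were controls, 28898 had 1 gene symbol in GEO's platform annotation, 551 several and 15692 none; 28689 were matched to RefSeq genes by Entrez identifier, which changed 0 symbols. The brightest 1-symbol probe set over all 26 arrays stood for each of 17097 genes (7180 had more than 1).

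The 12 arrays with title code dka were fitted in 4 groups with limma 3.58.1 in R 4.3.3 (8 residual degrees of freedom). The groups were secondary tumors, primary tumors, Group3 neurospheres and Trp53 Cdkn2c neurospheres, and all 4 enter the variance of each gene. Arrays with code mmm were left out because they have a wider range of values (-0.41 to 16.11 against 2.56 to 13.86). Every gene's p is limma's, adjusted by Benjamini-Hochberg over all genes, with a threshold of 0.05, and SE is the moderated standard error. Alternatives were all 26 arrays, only the 6 arrays compared, the mean of a gene's probe sets, quantile normalization, a filter on dim genes, trended robust variances, array weights, leaving out each array and, added after seeing the data, averaging secondary tumors 2 and 3. The fit was tested on simulated arrays. Replicate numbers follow deposit order. Array number limits the precision.

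The samples, the 36 gene lists (812 distinct genes measured) and the tests were chosen with earlier results of these data known, and the choice of promoter letters followed the results. The text names Myc, Mycn and Cdkn2c, then the called genes without overlap of arrays that moved furthest (12 up and 12 down). It also names up to 6 called members of each list by size of change, or 2 where none was called. Most others are named as chosen after their values were seen. Fgf1, Lfng, L1cam, Ercc1, Ggh, P2ry12, Tmem119 and Itgam also fall outside this rule, as do further genes listed with promoter letters. Promoter windows (RefSeq, GRCm38.p6) span 250 bases before to 50 after each start. Results for a few genes are not reported here. Figures were drawn with matplotlib 3.10.9.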

Additional observations from a re-analysis of the deposited data

Results flagged for a closer look

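For 11 of the genes named, the difference from neurospheres was not the same in secondary as in primary tumors, by the contrast of the 2 kinds of tumor in the common fit. Higher in secondary tumors were Rlf (3.72 on the log2 scale), Dlx1 (3.52), Ramp2 (2.53) and Bclaf1 (2.05). Lower in secondary tumors were Pou3f3 (-3.91), Pantr1 (-3.25), Cdh4 (-2.42), Itga9 (-2.16), Metrn (-1.80), Fgfr1 (-1.66) and Jak2 (-1.50). The calls for Rlf, Ramp2, Pou3f3 and Fgfr1 were each kept in 13 of 14 alternative fits and those for Bclaf1 and Jak2 in 12, whereas Dlx1 and Pantr1 kept theirs in 9, Cdh4 and Metrn in 7 and Itga9 in 5. Against neurospheres 2 of 3 probe sets of Ramp2 were called, both higher, while the uncalled one pointed the other way (-0.99). Rlf and Dlx1 have 1 probe set each. Groups of 3 arrays were not screened for single outlying arrays.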

How the results depend on the processing

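The counts of genes higher and lower in secondary tumors than in neurospheres, at any size and at 2-fold, stayed within 1.5 times their values under all 14 alternatives. The counts against primary tumors did not. The 16 higher genes became 45 with all 26 arrays, 1 with only the 6 arrays compared, 83 with the mean of a gene's probe sets, 103 with array weights and 3 with secondary tumors 2 and 3 averaged; leaving out 1 array gave 3 to 35. The 43 lower genes became 0 with only the 6 arrays compared (limma; 1135 at an unadjusted p under 0.05), 201 with array weights and 6 with secondary tumors 2 and 3 averaged; leaving out 1 array gave 6 to 135. Fits with fewer arrays have fewer degrees of freedom, and the cause of the other moves was not tested. Of 176 named genes called against neurospheres, 150 to 176 were still called under each alternative that tested all of them, and none changed direction. Secondary tumor 1 differed from the mean of secondary tumors 2 and 3 by more than 2 log2 units upward in 128 genes and downward in 240, against 2 and 9 between secondary tumors 2 and 3. No paired analysis was possible because the labels give no replicate numbers.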

Other observations

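Probe sets without a single gene symbol take part in none of the comparisons above. Of 16139 such probe sets, 1597 were higher and 1249 lower in secondary tumors than in neurospheres in a limma fit over all probe sets with Benjamini-Hochberg adjustment, so that here rises were the more numerous, while among named genes falls were.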
